A study of Sus scrofa with 8 samples.

Results

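Regions of open chromatin that were called in both CBP 60 h libraries and in none of the other 6 libraries were examined in satellite cells of pig muscle, which are the stem cells that regenerate muscle fibres. They were selected on the peak calls themselves: peaks of all 8 ATAC-seq libraries on chromosomes 1 to 18 and X were merged wherever they overlapped by 1 bp, and 1542 of the 178498 merged regions met the rule. ATAC-seq marks open DNA by the insertion of sequencing adapters with a transposase. The groups, with 2 libraries each, are labelled CBP at 60 h, CBP at 0 h, WT at 60 h and WT at 0 h, where 60 h is the differentiation stage and 0 h the proliferation stage. The treatment text, shared by all samples, names SGC-CBP30 at a stated 5 uM/ml, applied over 48 h of proliferation and over 60 h of differentiation. It does not say which libraries received the compound, so the groups are named as labelled. All samples carry the cell line name C3H, while organism and peak coordinates are those of pig. Nothing in the labels says whether replicates came from separate animals or cultures.

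CBP, encoded by CREBBP, and its relative EP300 are acetyltransferases that act as coactivators at enhancers and promoters, and in muscle they act with MYOD1. SGC-CBP30 binds the bromodomain of both proteins, the module that reads acetylated lysines. Open regions far from genes are often enhancers, which bind transcription factors and can act on genes at a distance.

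The CBP 60 h lists held 88871 and 87977 peaks, the CBP 0 h lists 135528 and 121757, the WT 60 h lists 86282 and 82696, and the WT 0 h lists 127394 and 134181. Relative depth, read from each library's background level and given in units of the shallowest library, was 1.21 and 1.08 in CBP 60 h, 1.98 and 1.43 in CBP 0 h, 1.11 and 1 in WT 60 h, and 1.69 and 2.08 in WT 0 h. Of 12 satellite cell markers, 9 or 10 had a called region within 1 kb of a gene end in every library. For other cell types this was so for 3 to 7 of 10 endothelial genes, 4 to 7 of 10 immune genes and 4 or 5 of the 8 neural and Schwann genes in the gene table, and for 12 of 14 housekeeping genes. Open chromatin at a gene end is not a measure of its expression, so these counts do not settle which cells were present.

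The 1542 regions were 0.864% of all merged regions. The same rule applied to the other groups gave 2887 regions (1.62%) called only in CBP 0 h, 379 (0.212%) called only in WT 60 h and 3658 (2.05%) called only in WT 0 h. At 60 h, where depth was similar, the CBP-only regions thus outnumbered the WT-only regions, and both 0 h groups, which were deeper, had more than either. Every library entered the rule, so these counts are given without a test. The number depended on the peaks entered. With equal peak numbers in all libraries 3011 regions met the rule, and with only peaks of a −log10 q of 5 or more 912 did. That threshold also removed weaker peaks of the other 6 libraries. The 912 are thus not a subset of the members, of which 441 reached 5 in both CBP 60 h libraries. Applied to CBP 60 h replicate 2 alone the rule gave 4834 regions, and to replicate 1 alone 6108.

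Just outside the rule lay 1124 regions called in both CBP 60 h libraries and in exactly 1 of the other 6. The extra call came most often from CBP 0 h replicate 1, with 411 regions, and from CBP 0 h replicate 2 in 133. It came from WT 60 h replicates 1 and 2 in 180 and 165 regions, and from WT 0 h replicates 1 and 2 in 91 and 144. On the other side of the rule, 4505 regions were called in CBP 60 h replicate 1 alone and 3221 in CBP 60 h replicate 2 alone. By distance, 10 of the 1542 regions had a peak of another library within 100 bp and 126 had one within 500 bp, and the lowest such gap was 38 bp.

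Most of these regions were weak for their lists. Their median −log10 q, the authors' measure of peak confidence, was 4.71 in CBP 60 h replicate 1 and 4.93 in replicate 2, and ran from 1.37 to 26.4 in replicate 1 and from 1.77 to 23.5 in replicate 2. In their own lists these peaks ranked at a median percentile of 25.6 and 24.4. The authors' fold over local background had a median of 3.89 and 4.21, and the summit pileup, the number of fragments over the summit recovered from that fold and the p-value, had a median of 14 in each replicate. The regions called only in WT 60 h had comparable ranks, with median percentiles of 23.2 and 22.7 in their lists.

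Since both peaks had to fall in the same merged region, a short distance between their summits is largely set by the rule. The median distance between the 2 summits was 60 bp, and 1356 regions (87.9%) had them within 200 bp. Strength was shared less closely, with a Spearman rho of 0.392 between replicates across the 1542 regions. Across the 65880 regions called in both CBP 60 h libraries and at least 1 other, rho was 0.865, over a wider range of strengths. In bulk chromatin a region open in few cells and a region weakly open in many cannot be told apart. In both libraries −log10 q reached 5 in 441 regions and 10 in 32. Region width had a median of 479 bp, with a range of 204 to 1400 bp, against 413 bp for regions called only in CBP 0 h, 437 bp for WT 60 h and 422 bp for WT 0 h.

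**Figure D1:**
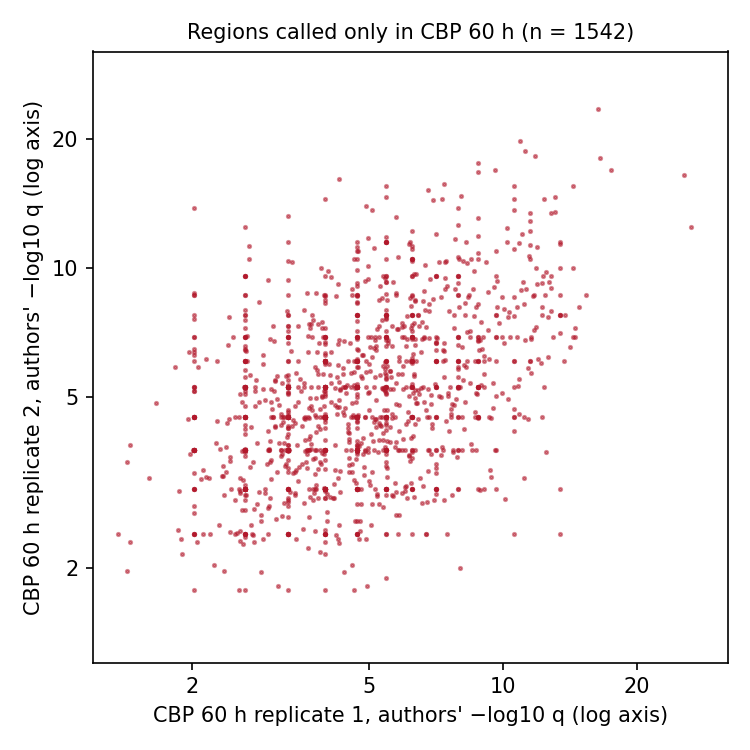
The authors' −log10 q of each region called only in CBP 60 h, replicate 1 on the horizontal and replicate 2 on the vertical log axis, 1 point per region (n = 1542). Most points lie near the medians of 4.71 and 4.93, 32 regions reach 10 in both libraries, and the stripes come from pileups that are whole numbers.

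The depth of the other libraries was set beside these strengths. Pileups were scaled by relative depth, as they would be with equal accessibility. The median scaled pileup was 21.3 and 15.4 for the CBP 0 h libraries, 11.9 and 10.8 for the WT 60 h libraries, and 18.2 and 22.4 for the WT 0 h libraries. The lowest pileup called at the background level of those libraries was 11 and 9, 8 and 7, and 10 and 11. In all 6 libraries 1538 regions were at or above that lowest pileup, and 44 were at or above the median pileup of every list. The members were chosen for being called at pileups of at least 8, in libraries shallower than those of 0 h, so reaching the lowest called pileup is largely set by the choice of members. A limit of detection in the other libraries was not tested.

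The strongest region by its weaker library lay on chromosome 8 from 35589859 to 35590694 in Sscrofa11.1, between genes and 370332 bp from the nearest end of GNPDA2, an enzyme of glucosamine metabolism. Its −log10 q was 17.5 in CBP 60 h replicate 1 and 16.9 in replicate 2, with folds of 8.38 and 8.33 and pileups of 27 and 26. No other library had a peak within 4203 bp. The second, inside CDH17, which encodes a cadherin of liver and intestine (chromosome 4, 42511437 to 42512194), had a −log10 q of 16.6 and 18.04 and a fold of 6.99 and 7.91. In both regions the replicates nearly coincided.

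Inside SGK1, a kinase induced by serum and glucocorticoids, a region on chromosome 1 from 29713444 to 29714527 had a −log10 q of 25.5 and 16.5 and pileups of 37 and 27. Between genes, 18668 bp from the end of FRMD4B, a scaffold protein with a FERM domain, the region on chromosome 13 from 50998904 to 50999961 had a −log10 q of 16.4 and 23.5. The nearest peak of any other library was 11131 bp from the SGK1 region and 18300 bp from the FRMD4B region. Both lie apart from any peak of the other groups.

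A region 19772 bp from ADAMTS1, a secreted metalloprotease (chromosome 13, 190256575 to 190257403), had a −log10 q of 13.1 and 13.5. The region nearest GBE1, the glycogen branching enzyme, lay 859527 bp away (chromosome 13, 172774162 to 172774874), with 12.4 and 14.5. ZNF32, a zinc finger gene, was 213511 bp from a region on chromosome 14 (91937224 to 91937720) with 13.1 and 14.6. Such distances give the nearest gene as a landmark and no more. The remaining regions of the 10 strongest lay nearest to ODF1, described below, and to 2 genes without a name. That of LOC102164422 lay inside the gene, 144605 bp from its end (12.87 and 13.45). LOC110259411 was 803726 bp from its region (26.4 and 12.4). The last of these showed the widest gap between replicates among the 10.

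**Figure D2:**
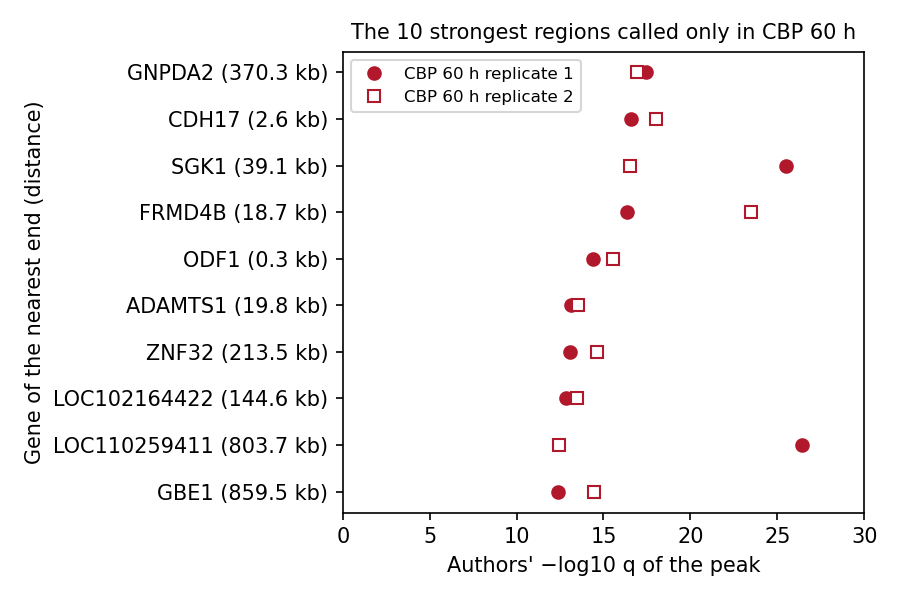
The authors' −log10 q in CBP 60 h replicate 1 (filled circles) and replicate 2 (open squares) of the 10 strongest regions called only in CBP 60 h, ordered by their weaker replicate, with the gene of the nearest end and its distance in kb. Values run from 12.4 to 26.4, and 3 regions, at SGK1, FRMD4B and LOC110259411, show replicates far apart.

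Regions called only in CBP 60 h lay far from gene ends, though many lay inside genes. Within 1 kb of an end of a protein-coding gene, at either side since the gene table gives no strand, lay 38 of them (2.46%). Inside genes elsewhere lay 648 (42.0%), and between genes 856 (55.5%). Over all 178498 regions these shares were 10.7%, 47.5% and 41.8%. The share at gene ends was 4.43% for regions called only in CBP 0 h, 3.96% for WT 60 h and 3.61% for WT 0 h, so a low share at gene ends was common to all group-only regions. The share between genes was 50% for CBP 0 h, 47.2% for WT 60 h and 41.2% for WT 0 h.

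Distance to the nearest gene end had a median of 60794 bp in the 1542 regions, against 35843 bp for regions called only in CBP 0 h, 38840 bp for WT 60 h, 29028 bp for WT 0 h and 26485 bp for all regions. Within 50 kb of a gene end lay 692 regions (44.9%), against 58.3% for CBP 0 h, 58.6% for WT 60 h, 62.7% for WT 0 h and 64.4% for all regions. Over 500 kb from any gene end lay 104 regions (6.74%), against 3.01%, 5.01%, 2% and 2.16%, in the same order. Other weak regions lay between the members and all regions, or close to all regions. Regions called in both CBP 60 h libraries and at least 1 other, whose weaker −log10 q fell in the members' middle range of 3.05 to 5.28, were within 50 kb of a gene end in 62.9% of 13344 cases. Regions called in exactly 2 libraries of any kind were so in 60.0% of 19505 cases. Those called in CBP 60 h replicate 1 alone or replicate 2 alone were so in 52.5% of cases each. The regions called in both replicates and in exactly 1 other library, just outside the rule, had a share of 45.5%, close to that of the members. With 2, 3 and 4 other libraries the share was 49.5%, 53.8% and 55.1%, at a median weaker −log10 q of 4.40 to 4.50. The part of peak strength in this distance was not tested. Placement of regions is an annotation that the rule did not use. Regions are not replicates of a condition, so none of these differences was tested.

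**Figure D3:**
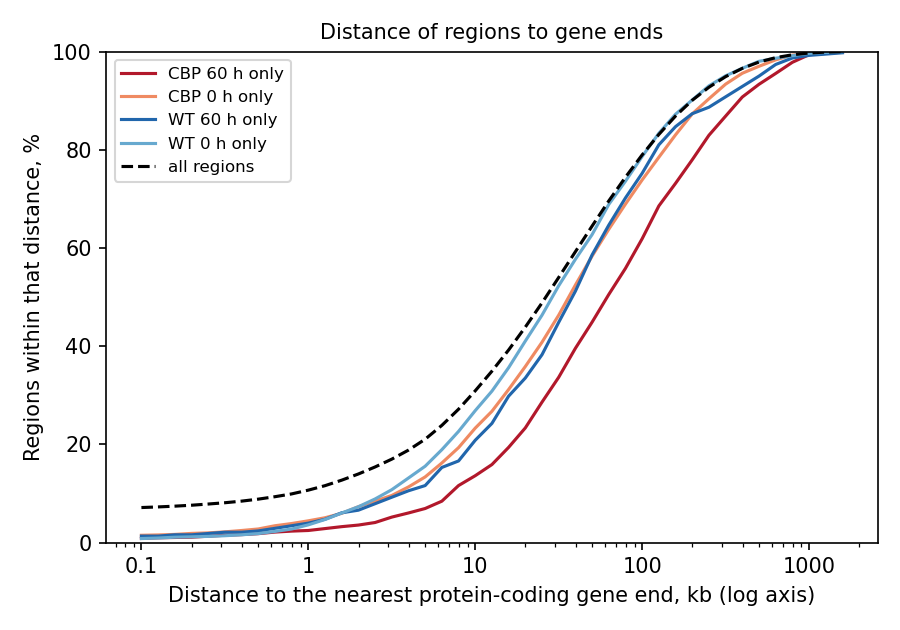
Cumulative share of regions (%) by distance to the nearest protein-coding gene end in kb (log axis), for regions called only in each group and for all merged regions (dashed). The curve of CBP 60 h lies lowest over most of the range, reaching 44.9% at 50 kb against 58.3% to 64.4% for the others.

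Of the 38 regions at gene ends, 2 reached a −log10 q of 10 in both libraries. The strongest was 251 bp from ODF1, which encodes a structural protein of the sperm tail (chromosome 4, 34510060 to 34510826), with a −log10 q of 14.4 and 15.5 in the 2 replicates. It was the single member of the 10 strongest regions that lay at a gene end. A region 79 bp from LOC100523736 (chromosome 4, 108973491 to 108974157) followed with 13.4 and 10.0. The next overlapped an end of STAU2, which encodes an RNA-binding protein of RNA transport (chromosome 4, 62455457 to 62455967), with 6.59 and 6.81.

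An end of DHRS3, a retinal reductase, was overlapped by a region with a −log10 q of 5.94 and 5.65, and an end of CEP41, a centrosomal protein, by a region with 10.9 and 5.51. Near SMAD2, a transducer of TGF-beta and activin signals, the region lay 282 bp inside the gene from its end (chromosome 1, 97415642 to 97416203), with 5.47 and 6.58. The other 4 of the 10 were at ASB7 (4.93 and 6.07), NFATC4, a calcium-regulated transcription factor (4.83 and 5.54), RHOD, a small GTPase (5.74 and 4.82), and CLMN (6.71 and 4.67). Peaks of other libraries were close at several of these. They began 330 bp from the NFATC4 region, 332 bp from the RHOD region and 638 bp from the DHRS3 region. There all 6 other libraries had a peak within 1036 bp, so the region stands beside open chromatin shared with other groups. At SMAD2 a peak of WT 0 h replicate 2 lay 555 bp away, and the remaining libraries had none closer than 5064 bp.

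The share of regions called only in CBP 60 h changed with the number of genes around them. Among merged regions with no protein-coding gene within 500 kb, 91 of 3208 (2.84%) were called only in CBP 60 h. With 1 to 2 genes the share was 1.35%, with 3 to 5 genes 1.2%, with 6 to 10 genes 0.856%, with 11 to 20 genes 0.519%, and with 21 or more genes 0.280% (70 of 24996). The share thus became lower at every step towards gene-rich surroundings. For regions called only in CBP 0 h the share also fell at every step, from 2.18% at 0 genes to 1.27% at 21 or more. For WT 60 h it was 0.561% and 0.168%, and for WT 0 h 2.09% and 1.82%, without a fall at every step. The ratio of the share at 2 or fewer genes to that at 11 or more was 3.64 for CBP 60 h, 1.47 for CBP 0 h, 1.63 for WT 60 h and 1.16 for WT 0 h. The ratio of WT 60 h was 1.04 without WT 60 h replicate 2 and 1.06 with equal peak numbers.

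**Figure D4:**
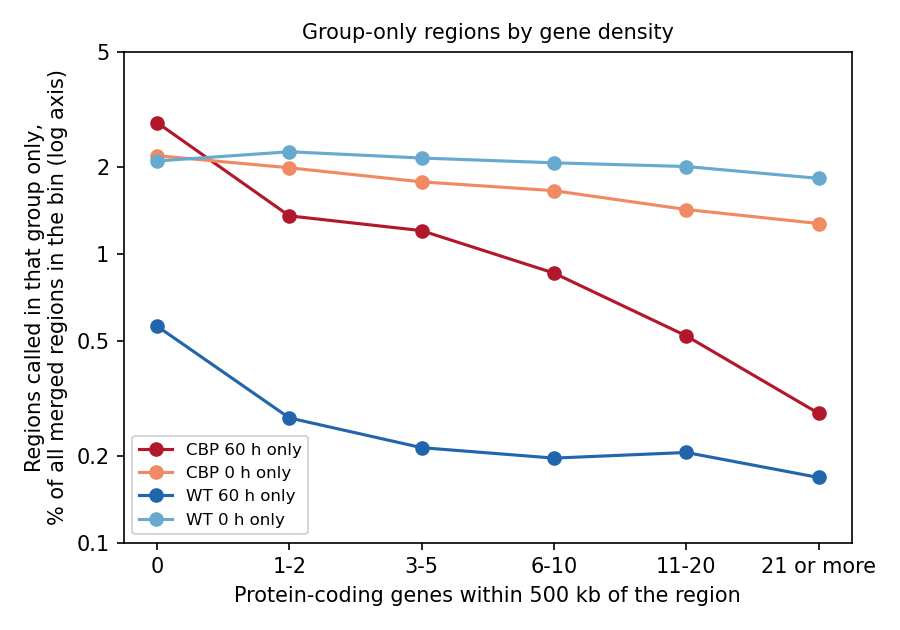
Share of merged regions called in a single group only (%, log axis) by the number of protein-coding genes within 500 kb of the region. The CBP 60 h line runs from 2.84% at 0 genes to 0.280% at 21 or more, while CBP 0 h ends at 1.27%, WT 60 h at 0.168% and WT 0 h at 1.82%.

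Whether strength played a part in the change with gene number was not tested. Within the members, position differed little with −log10 q. Ordered by their weaker −log10 q, in 4 groups cut at the quartiles, 22.4% of the weakest members and 25.3% of the strongest had 2 or fewer genes within 500 kb, and the 4 groups lay between 20% and 25.3%. The share within 50 kb of a gene end was 45.6% in the weakest and 42.3% in the strongest group. A choice by raw pileup gave another picture. The 44 regions with a scaled pileup at or above the median of every other list had 75% within 50 kb of a gene end, and 4.55% with 2 or fewer genes. Their local background, as recovered, had a median of 9.90 and 9.49 fragments in the 2 libraries, against 2.42 and 2.18 over all members, and their median fold was 3.03 and 3.13. The part of local background in the position of the regions was not tested.

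The position of the members was shared in part by other regions that CBP 60 h had and WT 60 h lacked. Of the 176956 regions that were not members, 5607 (3.17%) were called in both CBP 60 h and neither WT 60 h library. All 5607 had at least 1 call at 0 h. The reverse, a call in both WT 60 h and neither CBP 60 h library, was seen in 5702 (3.22%). These 5702 still hold the 379 regions called only in WT 60 h, while the 5607 leave out the members. The 2 counts are thus not like for like. Among the members 23.3% had 2 or fewer genes within 500 kb, among the 5607 regions 18.2%, and among the 5702 reverse regions 13.2%, against 13.0% over all regions. With the members left out, regions with 2 or fewer genes made up 11.8% and 11.6% of the regions called in the CBP 60 h libraries, 12.2% and 11.8% in CBP 0 h, 10.6% and 10.8% in WT 60 h, and 11.9% and 11.8% in WT 0 h. The WT 60 h libraries stood lowest, and the CBP 60 h libraries did not overlap with them. With 2 libraries a group, no test of this difference was made.

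Members also lay farther from widely open chromatin. The median distance of a member to a region called in all 8 libraries was 19264 bp, against 13103 bp for regions called only in CBP 0 h, 11364 bp for WT 60 h, 10715 bp for WT 0 h and 11292 bp over all regions. Within 50 kb of such a region lay 76.1% of the members, against 83.4%, 86.8%, 88.2% and 87.9%, in the same order. Other regions within 50 kb of a member numbered 12428, of which 4.02% were called in both CBP 60 h and neither WT 60 h library and 3.45% showed the reverse, against 3.10% and 3.20% of regions farther away. Around regions called only in WT 60 h these values were 1.94% and 3.77%. The first value leaves out the members in both cases. The second holds regions called only in WT 60 h around members, but not around those regions themselves. First and second values are thus not like for like. Another member lay within 50 kb of 177 members (11.5%). For regions called only in CBP 0 h, WT 60 h and WT 0 h, classes of unlike size, the same share was 16.1%, 6.07% and 22.5%. An end of a lncRNA gene, a gene for a long RNA that is not translated, lay within 1 kb of 29 members (1.88%), against 2.31% of all regions. It did so for 1.56% of regions called only in CBP 0 h, 1.06% for WT 60 h and 1.2% for WT 0 h.

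All chromosomes held members, from 0.489% of regions on chromosome 12 (33 regions) and 0.499% on chromosome 10 (28) to 1.06% on chromosome 8 (94) and 1.18% on chromosome 15 (118). Chromosome 12 is gene-dense, with a median of 19 genes within 500 kb of its regions, and chromosomes 8 and 15 had a median of 6. Chromosome 10 had a low share with a median of 7, so the order of chromosomes did not follow gene number throughout. The X chromosome held 31 members, a share of 0.703%.

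**Figure D5:**
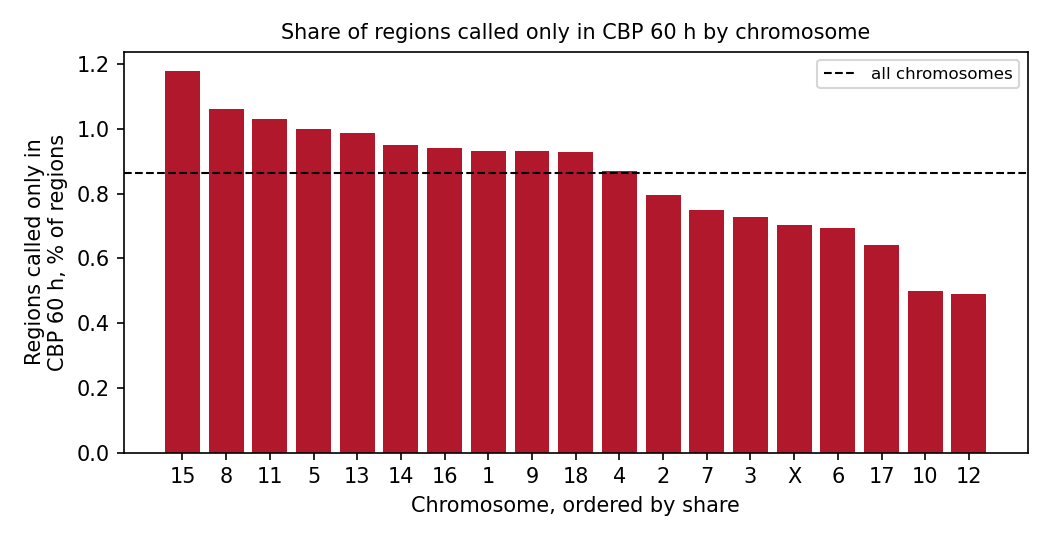
Regions called only in CBP 60 h as a share (%) of all merged regions of each chromosome, ordered by that share, with the value over all chromosomes (0.864%, dashed). Shares run from 1.18% on chromosome 15 to 0.489% on chromosome 12.

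Members were spread thinly, with at least 1 in 1027 of 2391 windows of 1 Mb and 3 or more in 115 windows. The window with the most, picked after its values were seen, held 7 members among 37 regions on chromosome 15, from 5000001 to 6000000, and no protein-coding gene. Of those, 4 lay between 5023802 and 5048620, within a stretch with no gene end closer than 764746 bp, that of ACVR2A, an activin receptor. Their −log10 q was 4.71 and 5.28, 6.78 and 15.2, 3.99 and 4.50, and 5.98 and 5.22 in replicates 1 and 2. The 30 regions of this window that were not members were called 11 and 12 times in CBP 60 h, 12 and 16 times in CBP 0 h, 7 and 10 times in WT 60 h, and 18 and 13 times in WT 0 h. Outside the members, then, calls in this window were no more frequent in CBP 60 h than at 0 h, where the libraries were deeper. Both CBP 60 h counts were above both of WT 60 h, the group of similar depth, though 12 and 11 stood close to 10.

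On chromosome 8 a window from 81000001 to 82000000 held 6 members around EDNRA, an endothelin receptor, and TTC29. The member inside EDNRA (81255756 to 81256446) had a −log10 q of 8.06 and 14.8. A second window on chromosome 8, from 40000001 to 41000000, held 6 members, the first inside SCFD2 and the last inside CHIC2, 22774 bp from its end, with 2 inside LNX1, a ubiquitin ligase. On chromosome 5, 4 members lay inside SYN3, a synapsin gene that houses TIMP3, an inhibitor of metalloproteases, the most inside any gene. Their host genes were long in general, with a median length of 219 kb over members inside a gene, against 126 kb over all regions inside a gene.

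Linked to a gene end within 50 kb were 692 members, or 0.602% of the 114950 linked regions. They fell to 640 genes, 3.65% of the 17512 genes with a linked region. Of these genes 594 had 1 member, 40 had 2 and 6 had 3, so no gene gathered many. The 6 genes were FBXL13, an F-box protein, with 3 of 7 linked regions, LOC110260809 with 3 of 11, ANKFN1 with 3 of 24, LHFPL2, a tetraspan membrane protein, with 3 of 26, RGS8, which dampens G protein signals, with 3 of 26, and ETS1, a transcription factor of the ETS family, with 3 of 33.

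FBXL13 (chromosome 9, 102976987 to 103179379) had members with a −log10 q of 7.92 and 6.06, 5.50 and 3.96, and 4.30 and 5.19 in CBP 60 h replicates 1 and 2. Its 4 other linked regions were called 2 and 0 times in CBP 60 h, 2 and 2 in CBP 0 h, 2 and 1 in WT 60 h, and 3 and 2 in WT 0 h. These 4 leave out regions over 50 kb from an end of the gene and regions nearer to an end of another gene. The first member lay inside FAM185A. At a coverage of at least 50% of the region, none of the 3 members remained.

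ETS1 (chromosome 9, 55377264 to 55512180) had its members 6085, 29201 and 34788 bp beyond 1 end, with a −log10 q of 3.29 and 5.28, 4.27 and 5.94, and 2.52 and 2.41. Its 30 other regions were called 16 and 16 times in CBP 60 h, 25 and 21 times in CBP 0 h, 19 and 15 times in WT 60 h, and 19 and 24 times in WT 0 h. Calls at these other linked regions overlapped between CBP 60 h and WT 60 h.

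LHFPL2 (chromosome 2, 87321119 to 87498686) held all 3 members within the gene, the strongest with a −log10 q of 6.70 and 10.2 and pileups of 23 and 29. Its 23 other regions were called 17 and 17 times in CBP 60 h, 18 and 20 in CBP 0 h, 13 and 14 in WT 60 h, and 18 and 18 in WT 0 h. ANKFN1 (chromosome 12, 32479469 to 32823527) had members outside the gene, each with a −log10 q from 3.44 to 4.71. Of its 21 other regions 9 and 9 were called in CBP 60 h, 14 and 11 in CBP 0 h, 6 and 6 in WT 60 h, and 8 and 12 in WT 0 h. RGS8 members had a −log10 q from 2.02 to 6.26. Its 23 other regions were called 11 and 13 times in CBP 60 h, 16 and 14 in CBP 0 h, 10 and 11 in WT 60 h, and 15 and 17 in WT 0 h. LOC110260809 members had a −log10 q from 2.50 to 7.75, and its 8 other regions were called 7 and 6 times in CBP 60 h, 7 and 7 in CBP 0 h, 6 and 6 in WT 60 h, and 7 and 6 in WT 0 h. Of these 6 genes, LHFPL2 and ANKFN1 had more other regions called in each CBP 60 h library than in each WT 60 h library, as did 8.68% of the 17505 genes with such a region. When the rule was applied to peaks with a −log10 q of 5 or more, ANKFN1 and RGS8 had 0 regions, and FBXL13, LOC110260809, LHFPL2 and ETS1 had 1 each. That of ETS1 is none of its 3 members above, none of which reached 5 in both libraries. Peaks of other libraries were close to some members. A member at ANKFN1 lay 252 bp from a peak of CBP 0 h replicate 1. Peaks of WT 0 h replicate 2 lay 191 bp from a member at RGS8 and 432 bp from a member at LOC110260809.

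Among BMP and TGF-beta signalling genes, which in muscle restrain or direct satellite cells, 7 of 594 linked regions were members (1.18%, against 0.602% of all linked regions), at 4 of 46 genes with a linked region (against 3.65% of all such genes). SMAD2 and SMAD3, the intracellular transducers of activin and TGF-beta receptors, had 2 each, BMP2, a ligand, had 2, and LTBP1, which binds latent TGF-beta, had 1. BMP2 (chromosome 17, 15750487 to 15762982) had its stronger member from 15781943 to 15782468, 18961 bp away, with a −log10 q of 4.71 and 10.5 and pileups of 13 and 19. The SMAD2 member outside the gene end, from 97400627 to 97401130 on chromosome 1, had 5.47 and 9.27. SMAD3 members had 5.82 and 5.67, and 4.41 and 5.28, and the member of LTBP1 had 11.4 and 5.85. All 6 other libraries had a peak 702 to 931 bp from the first SMAD3 member and 578 to 775 bp from the second. Near the LTBP1 member, all other libraries except WT 60 h replicate 2 had a peak 634 to 850 bp away. Of the same 594 linked regions, 12 were called only in CBP 0 h, 1 only in WT 60 h and 8 only in WT 0 h. Over all 114950 linked regions these counts were 1683, 222 and 2293.

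Wnt ligands, receptors and antagonists had 8 of 575 linked regions as members (1.39%, against 0.602% of all linked regions). Of the 49 genes with a linked region 7 had a member, against 3.65% of all such genes. LGR4, a receptor for R-spondins, had 2, both inside the gene, with a −log10 q of 10.8 and 5.32, and 10.3 and 7.88. The ligands WNT4, WNT5B, WNT6 and WNT16 had 1 each, as did LEF1 and TCF7L2, the transcription factors at the end of the pathway. WNT16 had the strongest of these in its first replicate, with 6.83 and 4.50, and WNT4 the weakest in its second, with 5.47 and 1.89. The TCF7L2 member lay 365 bp from a peak of CBP 0 h replicate 1. The counts for the other groups were 10 of the 575 only in CBP 0 h, 2 only in WT 60 h and 14 only in WT 0 h. Over all 114950 linked regions they were 1683, 222 and 2293.

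Sarcomere and contraction genes had 6 of 364 linked regions as members (1.65%, against 0.602% of all linked regions). Of the 46 genes with a linked region 6 had a member, against 3.65% of all such genes. ACTC1, the cardiac alpha-actin that developing muscle also expresses, had a member 6815 bp away (chromosome 1, 136273810 to 136274304) with a −log10 q of 9.71 and 9.32 and pileups of 41 and 42. The myosin heavy chains MYH2 (2.02 and 5.17) and MYH4 (2.64 and 7.25), the Z-disc proteins ACTN2 (3.67 and 4.72) and MYOZ2 (4.82 and 6.27), and the M-band protein MYOM1 (2.93 and 2.98) had 1 each. The MYOZ2 member lay inside its neighbour SEC24D. The MYH2 member lay 152 bp from a peak of WT 60 h replicate 1. For this list 10 of the 364 regions were called only in CBP 0 h, 1 only in WT 60 h and 8 only in WT 0 h. Over all 114950 linked regions these counts were 1683, 222 and 2293.

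Matrix and mesenchymal genes had shares nearer to the 0.602% over all linked regions. Collagens and matrix had 5 of 584 (0.856%), with 2 at COL12A1, a collagen associated with fibrils, and 1 each at COL11A1, DCN and TNC. Mesenchymal transcription factors had 5 of 590 (0.847%), at MEIS2, MEOX2, PRRX1, RUNX1 and TBX3. Adipogenic genes had 2 of 252 (0.794%), 1 inside EBF2 and 1 lying 36223 bp from PPARG, the main adipogenic factor. The guidance genes of the semaphorin, Slit, ephrin and netrin families had 4 of 641 (0.624%), with 2 at NRP2, a semaphorin receptor (6.33 and 7.43, and 3.65 and 2.22), and 1 each at EFNA5 and EPHB1. The second NRP2 member lay 95 bp from a peak of CBP 0 h replicate 2. Receptor tyrosine kinase growth signalling had 4 of 643 (0.622%), led by a region 6883 bp from IGFBP3, a binding protein of insulin-like growth factors, with a −log10 q of 8.78 and 13.1. Its others were linked to FGF18, NRG1 and SPRY2, that of NRG1 at 41265 bp.

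Endothelial markers had 2 of 127 (1.57%), at EMCN and ERG, and satellite cell markers had 1 of 154 (0.649%), 4921 bp from VCAM1, an adhesion molecule, with a −log10 q of 11.9 and 11.2. Inflammatory and NF-kB genes had 1 of 222 (0.450%), linked to TNFRSF11B but inside COLEC10, 45881 bp from the TNFRSF11B end. Acetyltransferase and bromodomain proteins had 1 of 307 (0.326%), at the coactivator NCOA1, and myoblast fusion and adhesion 1 of 388 (0.258%), at DYSF. These counts rest on 1 or 2 regions and are given for completeness.

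No member was linked to the 24 myogenic transcription factors, with 312 linked regions, the 28 AP-1 and immediate early genes with 252, the 32 cell cycle genes with 217 or the 16 Notch pathway genes with 196. The housekeeping genes (67 linked regions), immune markers (57) and neural and Schwann markers (54) also had 0. In the first of these lists, 2 of the 312 regions were called only in CBP 0 h, 0 only in WT 60 h and 7 only in WT 0 h. Over all 114950 linked regions these counts were 1683, 222 and 2293. The zeros of the members stand beside a background of 0.602% of linked regions.

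PAX7, the factor that marks satellite cells, had 42 linked regions, called 9 and 11 times in CBP 60 h, 25 and 23 in CBP 0 h, 8 and 12 in WT 60 h, and 25 and 25 in WT 0 h. MYOG, which drives terminal differentiation, had 10, called 5 and 7 times in CBP 60 h, 6 and 4 in CBP 0 h, 8 and 6 in WT 60 h, and 7 and 6 in WT 0 h. CBP 60 h and WT 60 h overlapped at both genes. MYOD1 (8 linked regions), MYF5 (5), MYF6 (7), CREBBP (17) and EP300 (8) likewise had no region that was called only in CBP 60 h.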

How the data were processed

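The authors deposited 1 peak list per library, giving each peak a score, a fold (ratio) against its surroundings and, as −log10, its q-value and p-value. Trimmomatic, MACS2 2.1.0 and the build Sscrofa11.1 are named in the submitters' processing notes. Steps not given in the sources used here, namely the aligner, duplicate removal and any read shift, would change peak heights and edges. Peaks were merged over 8 libraries by 1 bp overlap. Summit pileup and background were solved from the deposited fold and −log10 p under the peak caller's formulas, and a whole pileup resulted for 100% of peaks (tolerance 0.01 in −log10 p). Relative depth is the ratio of the libraries' commonest background values. The merging and the solver were tested on simulated data. Regions were linked to the closest end (5′ or 3′, since strand is unknown) of 19484 protein-coding RefSeq genes of Sscrofa11.1 within 50 kb. No genome sequence was used here, so the planned motif search and promoter sequences were not run. Of 584 listed genes, 564 were in the gene table. Named were genes with at least 3 members, the 10 strongest regions, the 10 strongest within 1 kb of a gene end, list genes with at least 2 members, and 7 fixed genes; single list members and windows were named after their values were seen. The members and lists were chosen with earlier results of these data known. The rule used the calls of all 8 libraries, so no p-value was computed. Alternatives changed the threshold, overlap, peak number, placement and libraries. Python 3.11.15, pandas 2.3.3 and scipy 1.17.1 were used.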

Additional observations from a re-analysis of the deposited data

How the results depend on the processing

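No paired analysis was possible for the members' counts and shares because the rule used the calls of all 8 libraries and no result comes from a test. Shares per library could have been fitted, but were left as descriptions. When each list was cut to its best 82696 peaks, 3011 regions met the rule, 3.39% of them at gene ends and 48.0% within 50 kb of one, and 20.2% had 2 or fewer genes within 500 kb, with a median width of 504 bp and a ratio of 2.72. A −log10 q of at least 5, required of the peaks of all 8 libraries, gave 912 regions (median width 589 bp). One of at least 3 gave a width of 504 bp, and 50% coverage a width of 520 bp. Windows around summits gave 4.41% at gene ends, 52.8% between genes, 48.2% within 50 kb, a width of 562 bp and a ratio of 3.05. Regions with a scaled pileup at or above the median of every other list, an alternative chosen after seeing the data, numbered 44, with 13.6% at gene ends, 25% between genes, 75% within 50 kb, 4.55% with 2 or fewer genes, a width of 464.5 bp and a ratio of 0.242, the opposite side of 1. Leaving out 1 library gave 1639 to 6108 regions, 2.36% to 3.32% at gene ends, 50.1% to 55.6% between genes, 44.7% to 50.5% within 50 kb, 20.3% to 23.2% with 2 or fewer genes, widths of 293 to 485 bp and ratios of 2.43 to 3.58. The highest counts came from the rule applied to 1 CBP 60 h library, with 4834 without replicate 1 and 6108 without replicate 2. In all 14 settings that gave the ratio for each group, that of CBP 60 h was the highest. These include the main setting and the 8 that left out 1 library. The choices by scaled pileup, with the ratio of 0.242, are not among them, since the other groups' ratios were not taken there. Of 228 recomputed counts at named genes, 176 stayed within 1.5 times. The cause of these shifts was not tested. Depth is known only as a relative value, and an uncalled region is not shown to be closed.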

Other observations

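On unplaced scaffolds and the Y chromosome, which the rule leaves out, 12 of 1716 merged regions were called only in CBP 60 h, against 20 only in CBP 0 h, 4 only in WT 60 h and 20 only in WT 0 h.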
